A study of Mus musculus with 6 samples.

Results

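The insulin-like growth factor (IGF) system was followed through the transcripts of 10 genes: the ligands Igf1 and Igf2, the receptors Igf1r and Igf2r, and the binding proteins Igfbp2 to Igfbp7. The cells were SVEC4-10, a mouse line that its labels call endothelial. The 10 genes were picked by name from the 55536 Ensembl genes listed for each library, and all were found. They were proposed as a family with the control and nattokinase values of this experiment in view, so their differences between the groups are given as a description, without p-values. RNA was sequenced from 3 libraries of cells labelled as control and 3 libraries of cells that received nattokinase for 24 hours. Nattokinase is a bacterial enzyme from fermented soybeans that cuts fibrin, the protein mesh of blood clots. Both groups were plated 24 hours ahead on 6-cm dishes and grown with 10% fetal bovine serum; the labels used here do not give its dose. No label says whether replicates came from separate cultures, so a p-value here weighs a difference only against the spread of these libraries, which may be technical.

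IGF-1 and IGF-2 are secreted peptides that signal through the tyrosine kinase receptor encoded by Igf1r, which is closely related to the insulin receptor and drives growth and survival through PI3 kinase and AKT. The receptor encoded by Igf2r has no kinase: it removes IGF-2 from the cell surface and also carries enzymes tagged with mannose 6-phosphate to lysosomes. The binding proteins are secreted carriers that hold the ligands outside the cell, compete with the receptor for them, and release them when proteases cut the carrier. Cells of vessel walls make several of these carriers, and IGFBP7, which binds IGFs only weakly, is abundant in the matrix around vessels.

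The libraries held between 15044778 and 18341370 reads assigned to genes. Values are FPKM, that is, reads scaled by exon length and by the reads assigned in each library. Levels of different genes are compared on this scale. The length covers all annotated exons of a gene, so the order of 2 genes rests on it. The label of the cells was checked with marker genes. None of 12 endothelial markers reached 1 FPKM in any library, 4 of them (Cldn5, Emcn, Erg and Tie1) were without a read in all 6, and the summed level of the 12 was 0.897 to 1.69 FPKM in the controls and 1.03 to 1.19 FPKM with nattokinase. Of 8 fibroblast markers 6 reached 1 FPKM, with Col1a1, Col1a2 and Col3a1 the highest and Thy1 at 0 reads in all 6 libraries, and their sum was 2067 to 2215 FPKM in the controls and 1849 to 1920 FPKM with nattokinase. Of 7 leukocyte markers 2 reached 1 FPKM (Cd14 and Cd68), 4 had 0 reads, among them Ptprc, Itgam and Cd3e, and the sum was 6.02 to 7.44 and 8.10 to 8.36 FPKM. Of 6 epithelial markers 3 reached 1 FPKM, and the sum was 6.48 to 7.87 and 7.30 to 8.92 FPKM. The share of reads on CT010467.1, a gene similar to ribosomal RNA, also separated the groups, at 1.85% to 2.89% in the controls and 0.525% to 0.610% with nattokinase. The part of these differences in the results given here was not tested. In bulk RNA, fewer cells of a type and less RNA per cell cannot be told apart.

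The IGF family in these cells consisted of 1 weakly expressed ligand, both receptors, and an unequal set of binding proteins led by Igfbp7. With nattokinase, Igfbp7 stood 1.49-fold above its control level, Igfbp3 at 0.563 and Igfbp4 at 0.545 of theirs, and the other expressed members stayed within 0.923 to 1.19 of the control level. Of the 10 members 7 had at least 1 FPKM in at least 3 libraries and entered the limma fit of all genes; Igf2, Igfbp4 and Igfbp5 did not. In that fit 1 member was called higher (Igfbp7) and 1 lower (Igfbp3) at an adjusted p of 0.05, beside 8.85% of the 10913 genes tested, 5.61% higher and 3.24% lower. Of the 7 tested members 4 had groups that did not overlap, 3 higher and 1 lower, beside 28.8% of all genes tested. Nothing is read from these counts, because the members were proposed with this contrast known.

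The start regions of the binding protein genes whose groups did not overlap are shown so that the letters before their starts can be compared. With nattokinase, Igfbp3 and Igfbp4 lay below and Igfbp7 and Igfbp2 above all controls. Igfbp2 differed little, at 1.1 of its control level, and was not called. All 10 members have a RefSeq start in GRCm38.p6, and for each gene the start nearest to the GENCODE gene start was used. Each line gives the 100 bases that end just before that start, 5′ to 3′ on the coding strand, with the positions chr11:7213924-7214023 (minus strand) for Igfbp3, chr11:99041144-99041243 (plus strand) for Igfbp4, chr5:77408046-77408145 (minus strand) for Igfbp7 and chr1:72824380-72824479 (plus strand) for Igfbp2. Capitals mark TATATA or TATAAA, the letters of a TATA box, and GGGCGG or its reverse complement CCGCCC, the letters of a GC box. The same 100 bases of Igfbp6, whose groups overlapped, hold none of these letters and are not shown. The RefSeq start of Igfbp6 lies 176 bases from its GENCODE start, against 0 to 23 bases for the genes shown. The bases between these starts of Igfbp6 were not searched, so the comparison is not like for like. For Igf1r and Igf1 the distance is 570 and 2846 bases.
Igfbp3: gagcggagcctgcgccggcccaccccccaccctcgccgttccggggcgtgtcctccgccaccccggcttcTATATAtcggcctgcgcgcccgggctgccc
Igfbp4: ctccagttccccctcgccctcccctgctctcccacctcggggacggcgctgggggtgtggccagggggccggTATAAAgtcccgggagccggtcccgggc
Igfbp7: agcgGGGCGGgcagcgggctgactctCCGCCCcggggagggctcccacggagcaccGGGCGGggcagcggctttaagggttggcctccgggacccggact
Igfbp2: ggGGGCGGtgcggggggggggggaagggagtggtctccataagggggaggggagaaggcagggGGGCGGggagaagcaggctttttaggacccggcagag

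The TATATA of Igfbp3 began 30 bases and the TATAAA of Igfbp4 28 bases before the start, where a TATA box usually lies. Either hexamer, on the coding strand and beginning 35 to 20 bases before the start, was present in 2.52% of 32851 RefSeq start regions. In the 250 bases before the start, searched on both strands, GGGCGG matched in 4 members (Igf1r, Igf2r, Igfbp2 and Igfbp7) and in 32.7% of all start regions. Over the same 250 bases TATAAA matched in Igfbp4 and Igfbp6 (12.4% of all start regions) and TATATA, which is its own reverse complement, in Igfbp3 (5.25%). TGACTCA, the letters of an AP-1 site, matched in 0 members (4.46% of all), and GGAATG, the letters of a TEAD site, only in Igfbp5 (12.6%). The motifs and the genes shown were chosen with the values of the members known. Nothing about the differences between the groups is read from the matches or from the shares beside them. A match describes the letters and not a bound site.

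Igfbp7 was the most abundant member in every library. Its control libraries had 81.8, 89.8 and 89.4 FPKM and its nattokinase libraries 125, 129.6 and 134 FPKM. All 3 nattokinase libraries lay above all 3 controls, with means of 87.0 ± 4.50 and 129.5 ± 4.33 FPKM (SD, n = 3 per group, as for all values after ±). The log2 fold change was 0.57 with a standard error of 0.053, on the scale of log2(FPKM + 1) used for every fold change of the fit, which understates the change of low genes. By its mean over the 6 libraries Igfbp7 stood at the 96.7th percentile of the tested genes. The gene lies on chromosome 5, 77349240 to 77408041 (minus strand, GRCm38), and 85 of its 1209 exon bases, 7.03%, are shared with the tail of Polr2b, an RNA polymerase subunit gene on the other strand. Polr2b had 34.9 ± 1.83 FPKM in the controls and 37.6 ± 1.14 FPKM with nattokinase, a smaller difference than that of Igfbp7.

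Igfbp3, whose product is the main carrier of IGFs in blood, had the lowest ratio among the tested members. Its control values were 6.92, 6.94 and 7.94 FPKM and its nattokinase values 3.68, 4.48 and 4.11 FPKM. The groups were far apart, and the highest nattokinase library stayed well below the lowest control. The means were 7.27 ± 0.583 and 4.09 ± 0.400 FPKM, and the log2 fold change was −0.70 with a standard error of 0.076. These values rest on 327 to 410 reads per control library and 208 to 246 reads per nattokinase library. Igfbp3 lies on chromosome 11, 7206086 to 7213923 (minus strand), 3.54 kb from Igfbp1, which had 0 reads in all 6 libraries.

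Igfbp4, a carrier that inhibits IGF action until the protease PAPP-A cuts it, showed a ratio like that of Igfbp3 at a much lower level. The controls had 0.531, 0.647 and 0.577 FPKM and the nattokinase libraries 0.239, 0.323 and 0.395 FPKM. The groups did not overlap, but the counts were small, with 38 to 43 reads per control library and 19 to 32 reads per nattokinase library. When the minimum was set to 0.1 FPKM so that Igfbp4 entered the fit, its log2 fold change was −0.27 with a standard error of 0.080, a size that the added 1 FPKM compresses at this level. The gene lies on chromosome 11, 99041244 to 99054392 (plus strand), far from Igfbp3 on the same chromosome.

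Igfbp6 and Igfbp2 followed Igfbp7 in abundance. Igfbp6, which prefers IGF-2 over IGF-1, had 47.4, 50.7 and 53.5 FPKM in the controls and 47.6, 50.95 and 47.5 FPKM with nattokinase. These groups overlapped almost fully, with a log2 fold change of −0.05 and a standard error of 0.055, and −0.10 to −0.01 when single libraries were left out. Igfbp2, a carrier with an integrin-binding motif, had 32.7, 36.7 and 37.2 FPKM in the controls and 39.7, 38.99 and 38.6 FPKM with nattokinase. Its nattokinase libraries all lay above the controls, but by less than the distance between the lowest and the highest control. The means of Igfbp2 were 35.5 ± 2.46 and 39.1 ± 0.558 FPKM, and the log2 fold change was 0.14 with a standard error of 0.055. Without control replicate 1, the lowest, it was 0.08.

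Igfbp5, a carrier best known from bone and muscle, was close to absent, with 0, 1 and 2 reads in the controls and 0 reads in each nattokinase library. A level of 3 reads, taken as the limit of detection, corresponds to 0.0272 to 0.0332 FPKM for this gene, for counting error only, so no fold is given. Igfbp2 and Igfbp5 are neighbours on chromosome 1, 72824503 to 72852474 and 72857932 to 72874884, on opposite strands and 5.46 kb apart. The level of Igfbp2 in the same libraries was thus not shared by its neighbour.

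**Figure D1:**
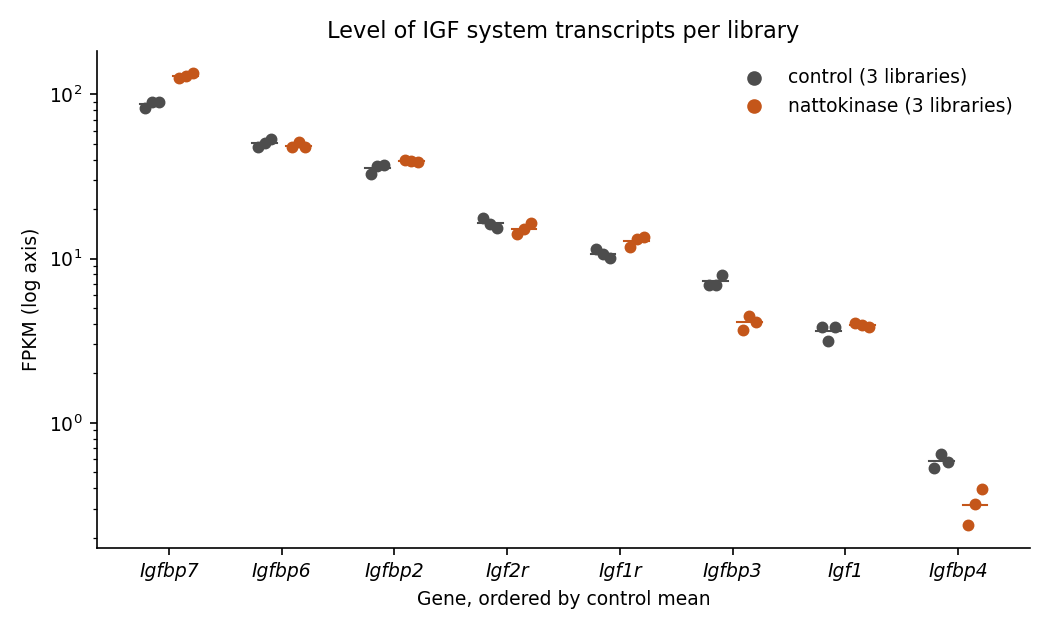
FPKM on a log axis for the 8 members with more than 0.1 FPKM in every library (grey, 3 control libraries; orange, 3 nattokinase libraries; lines, group means). Igfbp7 is the highest in every library, Igfbp3 overlaps Igf1 in the nattokinase libraries, and Igf2 and Igfbp5, with 0 to 2 reads per library, are not drawn.

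Counted together, binding protein transcripts were more abundant with nattokinase, a difference carried by Igfbp7, and their makeup differed. The sum over Igfbp2 to Igfbp7 was 169, 185 and 189 FPKM in the controls and 216, 224 and 224 FPKM with nattokinase. The sums did not overlap, and the ratio of their means was 1.23. Those means were 181 and 222 FPKM, and Igfbp7 alone had 87.0 and 129.5 FPKM. The other binding proteins together were thus not more abundant. Igfbp7 made up 48.1% ± 0.620 of the sum in the controls and 58.4% ± 1.05 with nattokinase. The share of Igfbp3 was 4.02% ± 0.234 and 1.84% ± 0.148, and that of Igfbp4 was 0.323% ± 0.024 and 0.143% ± 0.033. Igfbp6 took 27.9% ± 0.464 and 21.96% ± 0.770, and Igfbp2 took 19.6% ± 0.286 and 17.6% ± 0.619, so both had lower shares with nattokinase. Their shares are taken of a sum that holds Igfbp7, and the FPKM of Igfbp2 itself was not lower.

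Ratios between 2 members within a library do not depend on how the libraries are scaled. The Igfbp7 to Igfbp6 ratio was 1.73, 1.77 and 1.67 in the controls and 2.63, 2.54 and 2.82 with nattokinase. The Igfbp3 to Igfbp6 ratio was 0.146, 0.137 and 0.148 in the controls and 0.0775, 0.0880 and 0.0865 with nattokinase. Against this common reference Igfbp7 was thus higher and Igfbp3 lower in each nattokinase library, without overlap. The Igfbp3 to Igfbp7 ratio, which sets these genes against each other, had means of 0.0836 ± 0.0058 and 0.0316 ± 0.0027. Ratios with Igf1 overlapped between the groups. The binding protein sum to Igf1 ratio was 44.1 to 58.7 in the controls and 53.5 to 58.8 with nattokinase. The Igf1 to Igf1r ratio was 0.297 to 0.383 and 0.284 to 0.345.

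**Figure D2:**
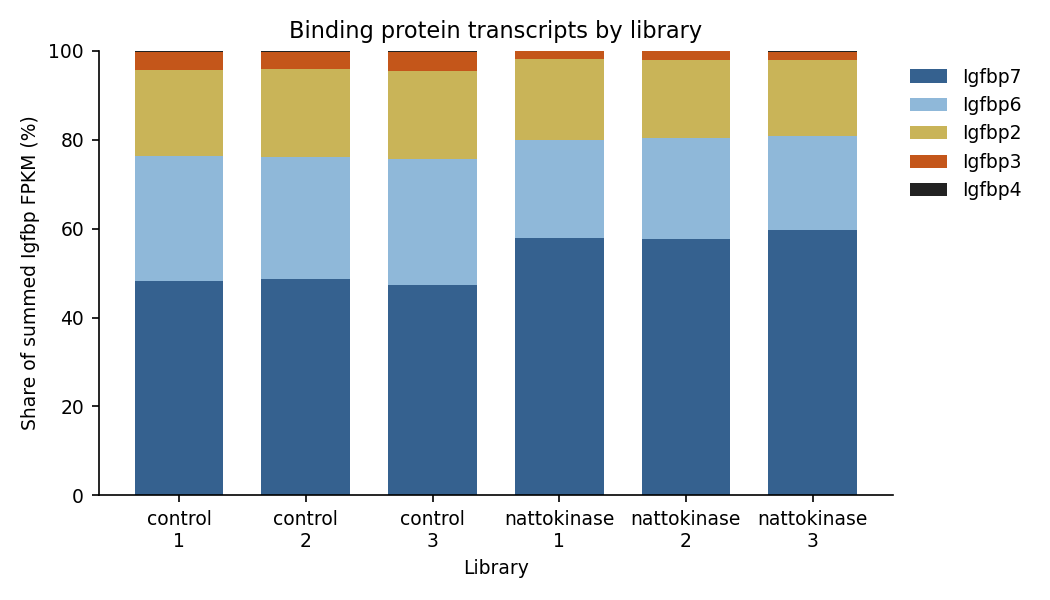
Share of each binding protein in the summed Igfbp FPKM (%, bars stacked to the full sum) in each of the 6 libraries. Igfbp7 takes 47.4% to 48.6% of the sum in the controls and 57.8% to 59.6% with nattokinase, while Igfbp4, under 1%, is barely visible at the top.

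Igf1 was the only ligand with a measurable level. It had 3.84, 3.15 and 3.86 FPKM in the controls and 4.04, 3.96 and 3.81 FPKM with nattokinase. The groups overlapped, with means of 3.62 ± 0.405 and 3.94 ± 0.115 FPKM and a log2 fold change of 0.10 with a standard error of 0.075. Control replicate 2 was the lowest, and without it the log2 fold change was 0.03. Igf1 lies on chromosome 10, 87858265 to 87937042 (plus strand).

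Igf2, the fetal growth factor expressed from the paternal allele, had 1 read in 1 nattokinase library and 0 reads in the other 5. A level of 3 reads corresponds to 0.0286 to 0.0348 FPKM, so any Igf2 transcript lay below that limit. H19, the noncoding RNA of the same imprinted domain, whose gene lies 72.6 kb from Igf2 on chromosome 7, had 38 to 46 reads in the controls and 52 to 66 reads with nattokinase, at 1.08 ± 0.053 and 1.34 ± 0.152 FPKM. H19 was called in neither direction (limma adjusted p = 0.28). Of the genes that overlap Igf2, Igf2os had 1 read over all 6 libraries and Gm49394 had 0.

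Both receptors were expressed at about the same order of magnitude, with the FPKM of Igf2r above that of Igf1r in every library. This order rests on the exon lengths, 16791 bases for Igf1r and 9308 for Igf2r. In reads, Igf1r was above Igf2r in every library, at 2674 to 4141 against 2269 to 2789. Igf1r, on chromosome 7, 67952827 to 68233668 (plus strand), had 11.5, 10.6 and 10.1 FPKM in the controls and 11.7, 13.2 and 13.4 FPKM with nattokinase. The groups did not overlap, but nattokinase replicate 1 was close to control replicate 1. The log2 fold change was 0.23 with a standard error of 0.067. Igf2r, on chromosome 17, 12682406 to 12769664 (minus strand), had 17.7, 16.2 and 15.3 FPKM in the controls and 14.0, 15.0 and 16.3 FPKM with nattokinase. These groups overlapped, with a log2 fold change of −0.11 and a standard error of 0.068, which became −0.06 without control replicate 1 or without nattokinase replicate 1.

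Within libraries Igf1r stood higher relative to Igf2r with nattokinase, a relative difference that exon length does not alter. The Igf1r to Igf2r ratio was 0.650, 0.653 and 0.659 in the controls and 0.836, 0.877 and 0.823 with nattokinase, so that the groups were separated by far more than the spread within either. Airn, the noncoding RNA that starts inside Igf2r and is known for silencing the paternal Igf2r allele, had 1.15 ± 0.225 and 0.965 ± 0.054 FPKM. The Igf1r to Insr ratio, which compares the IGF-1 receptor with the insulin receptor, had means of 2.61 ± 0.189 and 3.13 ± 0.168.

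**Figure D3:**
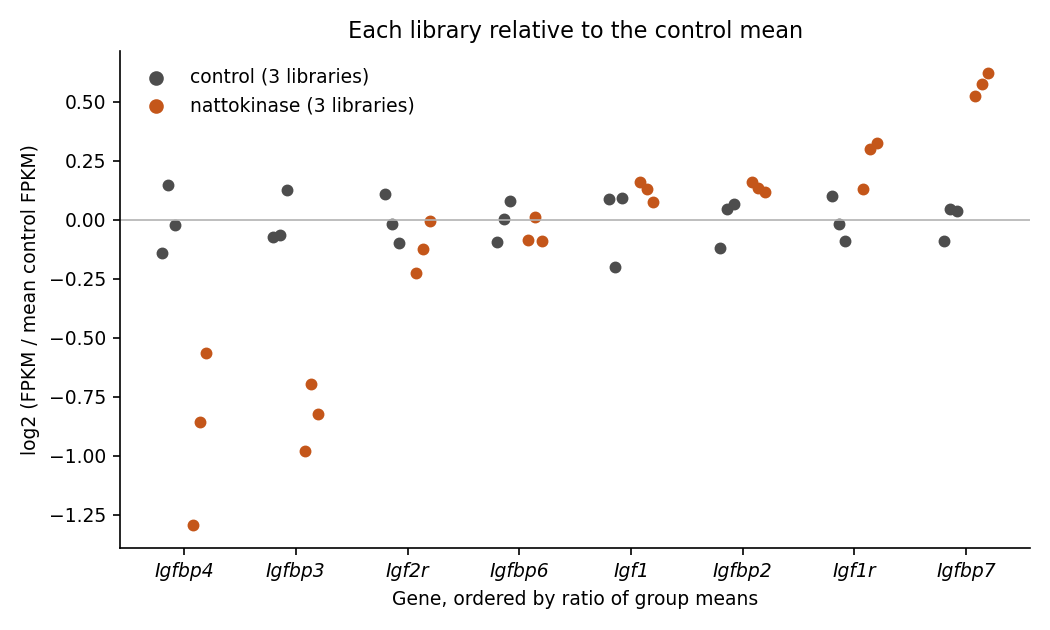
Each library's FPKM relative to the mean of the controls, as a log2 ratio, for the 8 expressed members (grey, control; orange, nattokinase). Igfbp4 and Igfbp3 lie below and Igfbp7 above all controls, while Igf1, Igf2r and Igfbp6 overlap with them.

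In the order of levels, the controls ran Igfbp7, Igfbp6, Igfbp2, Igf2r, Igf1r, Igfbp3, Igf1 and Igfbp4, and the ranges of neighbours in this order did not overlap. Below them Igfbp5 and Igf2 could not be told apart. With nattokinase the order was the same down to Igfbp4, but Igfbp3 (3.68 to 4.48 FPKM) and Igf1 (3.81 to 4.04 FPKM) overlapped. Igf2r and Igf1r had means of 16.4 and 10.7 FPKM in the controls and 15.1 and 12.8 FPKM with nattokinase.

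Genes with the most similar profile were looked up for the 2 members with the largest log2 fold changes. Likeness was the root mean square difference, over the 6 libraries, of log2(FPKM + 1) after subtracting each gene's mean, among 9922 tested protein-coding genes. For Igfbp7 the nearest were Cnn2, a calponin gene, at 0.013, Egr1, an early growth response transcription factor gene, at 0.022, and Csrp1, a LIM domain protein gene, at 0.026. For Igfbp3 they were Prr15l at 0.074, Draxin, which encodes a secreted axon guidance protein, at 0.080, and Il33, an alarmin gene, at 0.092. Draxin and Prr15l are low, at 1.54 ± 0.053 and 2.17 ± 0.310 FPKM in the controls and 0.654 ± 0.107 and 1.07 ± 0.094 FPKM with nattokinase. The added 1 FPKM compresses differences at such levels. A small distance can come from a group difference of similar size on this scale alone, and shared regulation was not tested.

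Proteases that cut IGF-binding proteins, and inhibitors of those proteases, changed in both directions. Of 20 listed genes 11 were tested, 3 rose and 1 fell, with a median log2 fold change of 0.17 beside 0.01 for all genes tested. Of all genes tested 5.61% were called higher and 3.24% lower. This list and those below were chosen with earlier results of these data known, so their counts and p-values are descriptive. Adam12, a membrane protease that cuts IGFBP3 and IGFBP5, rose from 3.58 ± 0.181 to 6.05 ± 0.220 FPKM (log2 fold change 0.62, limma adjusted p = 0.00032), with all 3 nattokinase libraries above all controls. Mmp14, a membrane-bound matrix metalloproteinase gene, rose from 59.6 ± 1.08 to 73.5 ± 3.44 FPKM (limma adjusted p = 0.0043). C1s1, which encodes a complement protease that cuts IGFBP5, rose from 4.32 ± 0.28 to 5.84 ± 0.634 FPKM (limma adjusted p = 0.020). Mmp3, the stromelysin gene, fell from 3.88 ± 0.557 to 2.04 ± 0.329 FPKM (log2 fold change −0.68, limma adjusted p = 0.0033). Leaving out control replicate 3, nattokinase replicate 2 or nattokinase replicate 3 ended the call of C1s1 (adjusted p up to 0.084), and leaving out the filter on low values ended those of C1s1 and Mmp3.

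Other members of this list were expressed without passing the test. Adam9 had 79.9 ± 2.89 and 90.2 ± 3.02 FPKM (limma adjusted p = 0.053), and the cathepsin D gene Ctsd had 58.8 ± 2.72 and 66.1 ± 2.17 FPKM (0.072). Prss23 had 80.5 ± 1.36 and 91.1 ± 6.80 FPKM, and the metalloproteinase inhibitor gene Timp1 had 92.8 ± 10.8 and 111.5 ± 9.51 FPKM. Pappa, whose product is the main protease of IGFBP4, had 0.0964 to 0.191 FPKM over the 6 libraries and was not tested. The plasminogen gene Plg had 1 read in 1 library.

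Downstream of the receptor, 2 feedback inhibitors fell and most other signalling genes did not pass the test. Of 39 listed adaptors, kinases, phosphatases and transcription factors 37 were tested, 2 rose and 2 fell, with a median log2 fold change of −0.01. Socs2, a suppressor of growth hormone and IGF signalling, fell from 2.38, 2.44 and 2.51 FPKM to 1.28, 1.26 and 1.04 FPKM (ratio of means 0.489, log2 fold change −0.65, limma adjusted p = 0.00091). Socs3, which also inhibits cytokine and insulin signalling, fell from 17.0 ± 0.743 to 12.2 ± 0.190 FPKM (limma adjusted p = 0.00062). Irs2, a substrate of the insulin and IGF-1 receptors, rose from 17.1 ± 1.15 to 20.2 ± 0.209 FPKM (limma adjusted p = 0.026). Irs2 lost its call on rescaling to protein-coding totals, and when any single library but control replicate 1 was left out (adjusted p up to 0.097 over the left-out libraries). The kinase gene Akt1 had 74.6 ± 1.83 and 73.1 ± 0.960 FPKM, and the phosphatase gene Ptpn11 had 47.2 ± 1.43 and 48.6 ± 0.873 FPKM.

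Genes known to be induced by FOXO factors, which AKT keeps out of the nucleus, did not move one way. Of 24 listed genes 19 were tested, 2 rose and 3 fell, with a median log2 fold change of −0.06. Bcl6, a transcriptional repressor gene, rose from 1.69 ± 0.199 to 3.43 ± 0.379 FPKM (log2 fold change 0.72, limma adjusted p = 0.00092). The other that rose was Irs2, counted above. Gadd45a, a stress sensor gene, fell from 9.89 ± 0.749 to 6.81 ± 0.355 FPKM (limma adjusted p = 0.0019), and Sesn1, a sestrin gene that restrains mTOR, fell from 9.37 ± 0.198 to 6.99 ± 0.359 FPKM (limma adjusted p = 0.0026). Txnip, which encodes a thioredoxin-binding protein, fell from 36.6 ± 0.406 to 32.0 ± 1.10 FPKM (limma adjusted p = 0.026), a call that ended when control replicate 2 or 3, or nattokinase replicate 2 or 3, was left out (adjusted p up to 0.12). The cell cycle inhibitor genes Cdkn1a and Cdkn1b had 32.1 ± 1.85 and 29.9 ± 2.65 FPKM, and 31.7 ± 0.536 and 30.4 ± 1.96 FPKM.

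**Figure D4:**
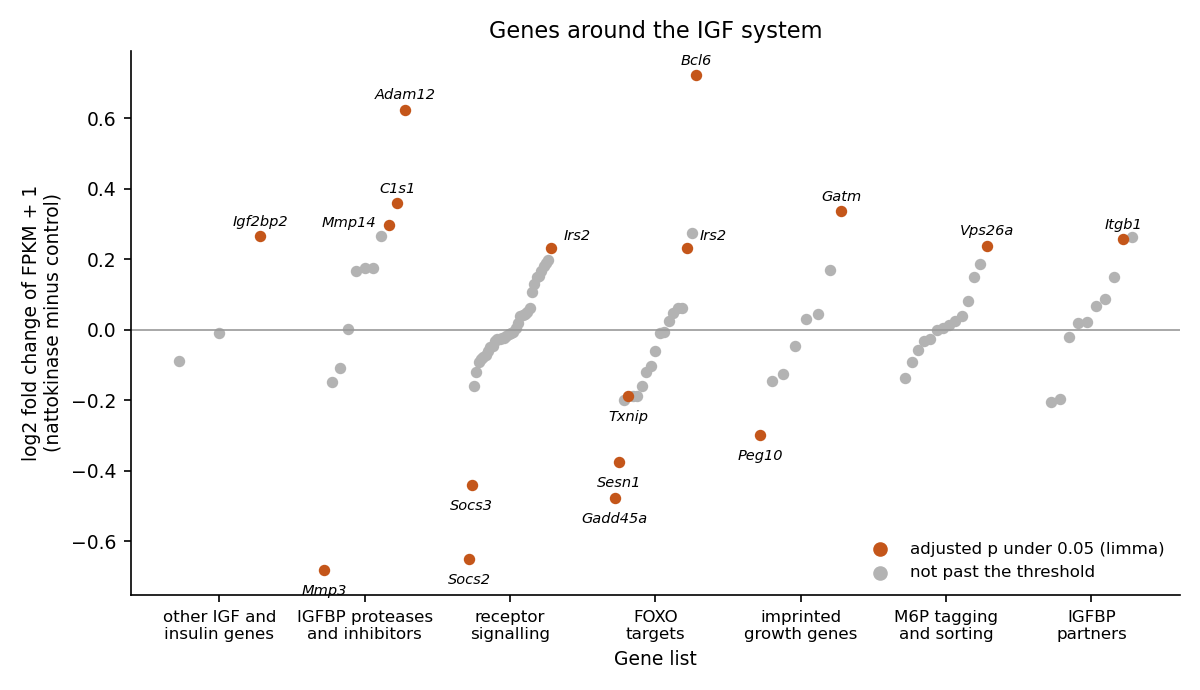
Log2 fold change of FPKM + 1, nattokinase minus control, for tested genes of 7 lists around the IGF system (orange, limma adjusted p under 0.05, with names; grey, not past the threshold). The called genes lie on both sides of 0 in 4 of the lists, from −0.68 for Mmp3 to 0.72 for Bcl6.

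Of 11 other IGF and insulin genes 3 were tested, and 1 rose. Igf2bp2, which encodes an mRNA-binding protein named for its Igf2 target, rose from 8.70 ± 0.327 to 10.7 ± 0.465 FPKM (limma adjusted p = 0.016). This call ended when control replicate 2, or nattokinase replicate 2 or 3, was left out (adjusted p up to 0.078). Insr had 4.12 ± 0.332 and 4.08 ± 0.157 FPKM, and Igf2bp1 had 7.89 ± 0.240 and 7.36 ± 0.456 FPKM. Ins1, Ins2, Igfbp1 and Igfbpl1 had 0 reads in all 6 libraries, and Igfals, which encodes the partner of IGFBP3 in blood, stayed at or below 0.0721 FPKM.

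Among 14 genes of mannose 6-phosphate tagging and sorting, the lysosomal pathway served by Igf2r, all were tested and 1 rose. Vps26a, a retromer subunit gene, rose from 37.0 ± 0.583 to 43.9 ± 2.40 FPKM (limma adjusted p = 0.016), a call that ended when control replicate 2 or 3, or nattokinase replicate 2, was left out (adjusted p up to 0.072). M6pr, which encodes the smaller mannose 6-phosphate receptor, had 47.3 ± 2.60 and 52.5 ± 0.789 FPKM (limma adjusted p = 0.10), and Vps35 had 22.1 ± 1.11 and 25.3 ± 1.37 FPKM.

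Of 18 imprinted growth genes outside the family 8 were tested, 1 rose and 1 fell. Gatm, which encodes an enzyme of creatine synthesis, rose from 24.0 ± 1.96 to 30.5 ± 0.623 FPKM (limma adjusted p = 0.0065), a call that ended without the filter on low values. Peg10, a retrotransposon-derived gene, fell from 3.47 ± 0.329 to 2.63 ± 0.197 FPKM (limma adjusted p = 0.042), a call that ended when any single library but control replicate 3 was left out (adjusted p up to 0.13). Grb10, an adaptor that inhibits the IGF-1 receptor, had 21.2 ± 0.461 and 20.5 ± 0.413 FPKM.

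Of the 14 listed surface and matrix partners of IGF-binding proteins 13 matched by symbol, 10 were tested and 1 rose. Itgb1, the integrin beta-1 gene, rose from 258 ± 8.48 to 309 ± 7.91 FPKM (limma adjusted p = 0.010), a call that ended when control replicate 2 or nattokinase replicate 2 was left out (adjusted p up to 0.057). The fibronectin gene Fn1 had 636 ± 55.7 and 762 ± 49.9 FPKM (limma adjusted p = 0.058), and Lrp1, a scavenger receptor gene, had 94.7 ± 12.9 and 82.3 ± 7.93 FPKM. Cd93, described as a receptor for IGFBP7 on endothelium, had 0.20 to 0.325 FPKM and was not tested.

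Over the 7 lists, each gene counted once, 98 of 134 matched genes were tested, 10 rose and 7 fell, and the median log2 fold change was 0.002. These calls were 17.3% of the list genes tested, beside 8.85% of all genes tested, and nothing particular to the lists is read from this. After rescaling to protein-coding totals 8 rose and 10 fell, which turns the balance of the directions. Leaving out control replicate 2 brought the number that rose to 5, nattokinase replicate 2 to 4, and nattokinase replicate 3 to 6. The calls of Adam12, Mmp14, Socs2, Socs3, Bcl6, Gadd45a and Sesn1 held in each of the 14 alternatives computed. Exons of C1s1, Irs2, Bcl6, Gadd45a and Txnip overlap those of another annotated gene, so part of their reads could belong to it.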

How the data were processed

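The authors deposited 1 file per library with FPKM for 55536 mouse Ensembl genes, zeros included. Per the submitters' processing notes the tools include featureCounts 1.6.0, HISAT2 2.1.0 and Trimmomatic 0.38, none with a stated role, and the build named is the human GRCh38, whereas the identifiers are from mouse; strand use and RNA selection are not given in the sources used here. All identifiers matched GENCODE M21 (GRCm38), the source of names and coordinates. In each library, FPKM multiplied by merged exon length fell on whole multiples of a single unit (100% of values within 0.05), which gave the reads quoted.

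A gene was tested if 3 or more libraries reached 1 FPKM. The test was limma 3.58.1 on log2(FPKM + 1) (R 4.3.3; trend and robust moderation), two-sided, adjusted by Benjamini-Hochberg over 10913 genes. Scripts were tested on simulated libraries. The members, gene lists and motifs were chosen with earlier results of these data known. Named genes are all members and, per list, up to 6 called genes with the smallest p and genes among the 4 most abundant of the others; H19, Airn, Polr2b, Igf2os, Gm49394, Pappa, Plg, Igfals, Igfbp1, Igfbpl1, Ins1, Ins2 and Cd93 were named outside this rule, after their values were seen. A called signalling gene and a marker gene stay in the counts but are not reported here by name. Replicates of a group correlated at 0.992 to 0.995 and differed by more than counting error (mean chi-square per gene 2.56 to 12.2). Intervals and limits of detection cover counting error only.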

Additional observations from a re-analysis of the deposited data

How the results depend on the processing

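Igfbp7 and Igfbp3 kept their direction and their call in all 14 alternatives, with log2 fold changes of 0.53 to 0.59 and −0.83 to −0.64. The alternatives reuse the same libraries, and the members were proposed with this contrast known. They thus describe the processing and add no evidence for the differences. Igfbp3 moved by more than its spread with a pseudocount of 0.1 (−0.81) and with limma-voom on recovered reads (−0.83). Members called higher numbered 1 to 2 over the left-out libraries and 2 with limma-voom, where Igf1r was added. Members called lower numbered 1 throughout. Over all genes 330 to 726 were higher and 193 to 481 lower over the left-out libraries, the lowest without nattokinase replicate 2 and control replicate 2. Without a filter 221 and 109 passed. Rescaling to protein-coding totals gave 440 higher and 509 lower, so 46.4% of calls were higher against 63.4%, while the median of all genes moved from 0.01 to −0.02 on the log2 scale. Of the genes in the 7 lists, 4 to 15 rose and 5 to 7 fell over the left-out libraries, 4 and 4 without a filter (which ended calls that include those of C1s1, Gatm, Igf2bp2, Irs2, Mmp3, Peg10, Txnip and Vps26a), 20 and 10 with limma-voom, and 8 and 10 with protein-coding totals. Same-numbered replicates did not deviate together (correlations −0.089, −0.044 and −0.059). Such values cannot tell whether these libraries were prepared together, which no label says. With the replicate number as a block 439 genes were higher and 249 lower, 1 member was called in each direction, and 7 list genes rose and 5 fell. Igf2 and Igfbp5 lay below the limit that depth allows.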
